A study of Mus musculus with 8 samples.

Results

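The transcripts described here encode transcription factors of the interferon regulatory factor (Irf) and signal transducer and activator of transcription (Stat) families, measured in mouse liver during endotoxemia. The members were chosen by name as *Irf1*, *Irf2*, *Irf3*, *Irf5*, *Irf7*, *Irf8*, *Irf9*, *Stat2* and *Stat3*, which are 9 of the 23282 gene rows in the count files. The study asked how LGK974, an inhibitor of Porcupine and therefore of Wnt secretion, affects mice given lipopolysaccharide (LPS). Liver RNA was read from the 3′ ends of transcripts (QuantSeq), so that a count does not grow with transcript length. All mice were C57BL/6, 4 weeks old and, per the labels, male. The control group had saline (called Normal in the labels), and the endotoxemic group had an intraperitoneal injection of 25 mg/kg LPS (called Control in the treatment text of the labels). Per the study's methods, the LGK974 group received LGK974 at 60 mg/kg and the same dose of LPS, and livers were taken 6 h after LPS. In most of the study's experiments LGK974 was given 2 h ahead of LPS. The label of the LGK974 group gives neither LPS nor a dose. None of the sources used here says whether each library came from a separate mouse, so p-values measure the spread between these libraries, which may be technical.

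Irf proteins share a DNA-binding domain that recognizes repeats of GAAA, the core of the interferon-stimulated response element (ISRE). Irf3, Irf5 and Irf7 wait in the cytoplasm until Toll-like receptors or RNA and DNA sensors cause their phosphorylation, after which they induce interferon and cytokine genes. Secreted interferons then act through Janus kinases (Jak) on Stat proteins. Type I interferon brings Stat2 and Irf9 together in a complex that binds the ISRE, whereas Stat dimers bind the interferon-γ-activated sequence (GAS). Interferon-γ induces *Irf1*, a further activator, and Irf2 competes with Irf1 for the same sites. Stat3 carries the signal of interleukin-6 in hepatocytes and drives the acute phase response.

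The promoters of 4 members are shown because these hold the motifs through which Irf, Stat and NF-κB proteins bind, and because 3 of them belong to the transcripts that were lower in the LGK974 group. Each run has 250 bases before and 50 bases after a RefSeq start site on GRCm38.p6, 5′ to 3′ on the strand of the gene. Capitals mark matches on either strand to the ISRE core GAAANNGAA, to GAS TTCNNNGAA or to the κB consensus, and no match overlaps another. The windows are chr11:53769764-53770063 for *Irf1*, chr8:46739495-46739794 for *Irf2*, chr8:120736108-120736407 for *Irf8* and chr10:128270248-128270547 for *Stat2*, all on the plus strand.
Irf1 promoter: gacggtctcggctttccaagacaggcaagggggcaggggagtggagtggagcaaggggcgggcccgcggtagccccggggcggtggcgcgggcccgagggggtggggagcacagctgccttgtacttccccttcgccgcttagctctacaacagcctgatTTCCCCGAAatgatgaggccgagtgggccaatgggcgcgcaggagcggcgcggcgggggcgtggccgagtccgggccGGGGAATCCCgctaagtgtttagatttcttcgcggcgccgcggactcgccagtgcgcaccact
Irf2 promoter: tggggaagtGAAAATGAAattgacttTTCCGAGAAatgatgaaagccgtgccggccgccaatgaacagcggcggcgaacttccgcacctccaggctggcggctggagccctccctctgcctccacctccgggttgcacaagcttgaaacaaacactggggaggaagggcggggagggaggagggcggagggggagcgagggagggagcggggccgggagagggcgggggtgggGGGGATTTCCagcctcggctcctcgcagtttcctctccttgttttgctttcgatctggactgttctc
Irf8 promoter: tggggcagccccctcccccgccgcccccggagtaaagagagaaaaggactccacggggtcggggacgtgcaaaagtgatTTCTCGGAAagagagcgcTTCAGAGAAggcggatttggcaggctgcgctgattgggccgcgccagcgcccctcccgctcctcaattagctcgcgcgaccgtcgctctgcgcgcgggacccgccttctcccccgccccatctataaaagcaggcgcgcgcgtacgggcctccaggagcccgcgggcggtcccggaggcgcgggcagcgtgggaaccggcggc
Stat2 promoter: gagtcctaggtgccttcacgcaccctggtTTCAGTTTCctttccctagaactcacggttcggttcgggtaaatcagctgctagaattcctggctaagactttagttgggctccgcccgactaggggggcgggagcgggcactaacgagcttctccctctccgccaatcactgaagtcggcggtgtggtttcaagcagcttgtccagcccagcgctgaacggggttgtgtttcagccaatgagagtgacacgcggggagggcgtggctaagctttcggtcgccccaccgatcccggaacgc

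In the *Irf1* window, TTCCCCGAA fits GAS from base -90 to -82 relative to the start site, and GGGGAATCCC fits the κB consensus from -13 to -4. The *Irf2* window holds an ISRE core, GAAAATGAA at -241 to -233, a GAS and a κB match. The *Irf8* window holds 2 GAS matches, TTCTCGGAA and TTCAGAGAA, which lie at -171 to -163 and -153 to -145. The *Stat2* window holds an ISRE core on the reverse strand, read here as TTCAGTTTC at -221 to -213. These letters were not found in the windows of *Irf3*, *Irf5*, *Irf7*, *Irf9* and *Stat3*, nor in the second windows of *Irf1* and *Irf8*. Of all 32851 RefSeq windows of this length, 8.56% held the ISRE core, 8.3% GAS and 8.46% the κB consensus. A match describes the letters of the window and is not a measured binding site.

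Endotoxemic libraries 3 and 4 repeated libraries 1 and 2 on every row and were counted once, so that each group has 2 distinct libraries. Total counts ranged from 9142116 to 15222439, and 3 counts, taken as the smallest signal a library can show, equal 0.196 to 0.327 CPM (counts scaled by the TMM-normalized library size). The 2 LGK974 libraries differed most from each other, with a chi-square per row of 90.4 between them, against 22.5 between control and 17.6 between endotoxemic libraries. Their shares of counts on *Rn45s*, the ribosomal RNA precursor, were 4.8% and 9.38%, against 7.17% to 8.26% in the other libraries, and the part of this in the results was not tested. The 4 control and endotoxemic libraries had 1171 to 3115 counts of *Xist*, the RNA that coats the inactive X chromosome of females, and 0 of Y-linked *Ddx3y*. The LGK974 libraries had 3 and 7 of *Xist* and 1755 and 1392 of *Ddx3y*. The control and endotoxemic libraries therefore went against the label male, and in both comparisons of the LGK974 group treatment cannot be told apart from this difference. *Alb* and the other hepatocyte markers were abundant, and moved between control livers and the other groups. Of the 6 on rows in order, 5 were called lower in endotoxemic and 4 in LGK974 than in control livers, and their summed level was 110000 and 77200 CPM in control, 47800 and 31200 in endotoxemic and 36100 and 32900 in LGK974 livers. Between the LGK974 and endotoxemic groups, 0 of the 6 were called (2 were higher at an unadjusted p below 0.05 and 2 with DESeq2). The part of the fall from control in the members' values was not tested.

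The rows of the files follow genomic order, apart from 833 rows whose symbol stands among genes of another place, and 22302 rows are in order. A row was taken as in order when a gene within 2 Mb on the same chromosome stood among the 2 nearest rows above it and another among the 2 nearest rows below it. This held for 8 of the 9 members. The row directly above *Irf1* carries *Lrp1* and the row directly below *Stat2* carries *Ccl21b*, both of other chromosomes, and the next rows, *Rad50* and *Pan2*, are genomic neighbours. *Stat3* did not meet the rule. Its row stands between *Vhl* and *Tatdn2* of chromosome 6, whereas the gene lies at chr11:100885098-100939540 on the minus strand (GENCODE M21). Changes between groups are therefore given for the other 8 members.

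In endotoxemic livers, *Irf1*, *Irf7*, *Irf8*, *Irf9* and *Stat2* were higher than in control livers, and *Irf2*, *Irf3* and *Irf5* did not pass the test. The 3 largest rises were 9.6-fold for *Irf1*, 11.3-fold for *Irf7* and 13.2-fold for *Irf8*. In the LGK974 group, *Irf1* and *Irf8* were 5.01-fold and 5.56-fold lower than in the endotoxemic group, and *Irf2* was 2.19-fold lower. *Irf7* remained high there, at 8.41-fold over control livers. A transcript was called different at an adjusted p below 0.05 in edgeR's quasi-likelihood test over 12701 genes with Benjamini-Hochberg adjustment, and all adjusted p-values below are from this test.

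Of the 8 members, 5 were called higher and 0 lower in endotoxemic against control livers. Over all genes tested, 20.4% were called higher and 23.0% lower. No member was lower at an unadjusted p below 0.05 (count of 0) or with DESeq2 (0). Against the endotoxemic group, 0 members rose and 3 fell with LGK974, beside 2.80% higher and 2.82% lower of all genes. Against the control group, the LGK974 group had 3 members higher and 1 lower, where 16.4% of all genes were higher and 17.7% lower. No member was higher in the second comparison at an unadjusted p below 0.05 (0) or with DESeq2 (0). The median log2 fold change of the members was 1.16, -0.68 and 0.48 in these 3 comparisons, and that of all genes tested was 0.01, 0.03 and 0.02. Endotoxemic and control libraries did not overlap for 8 of the 8 members, as for 77.1% of all genes. LGK974 and endotoxemic libraries did not overlap for 5 of the 8, as for 52.5% of all genes, and LGK974 and control libraries for 7 of the 8, as for 68.1%. The 3 members lower in the LGK974 than in the endotoxemic group became 1 without endotoxemic library 2 and 5 without LGK974 library 1. The 3 members higher than in the control group became 1 without either control library, and the 1 lower member became 2 without either LGK974 library. The comparisons share libraries, and their values are given side by side for this reason.

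**Figure D1:**
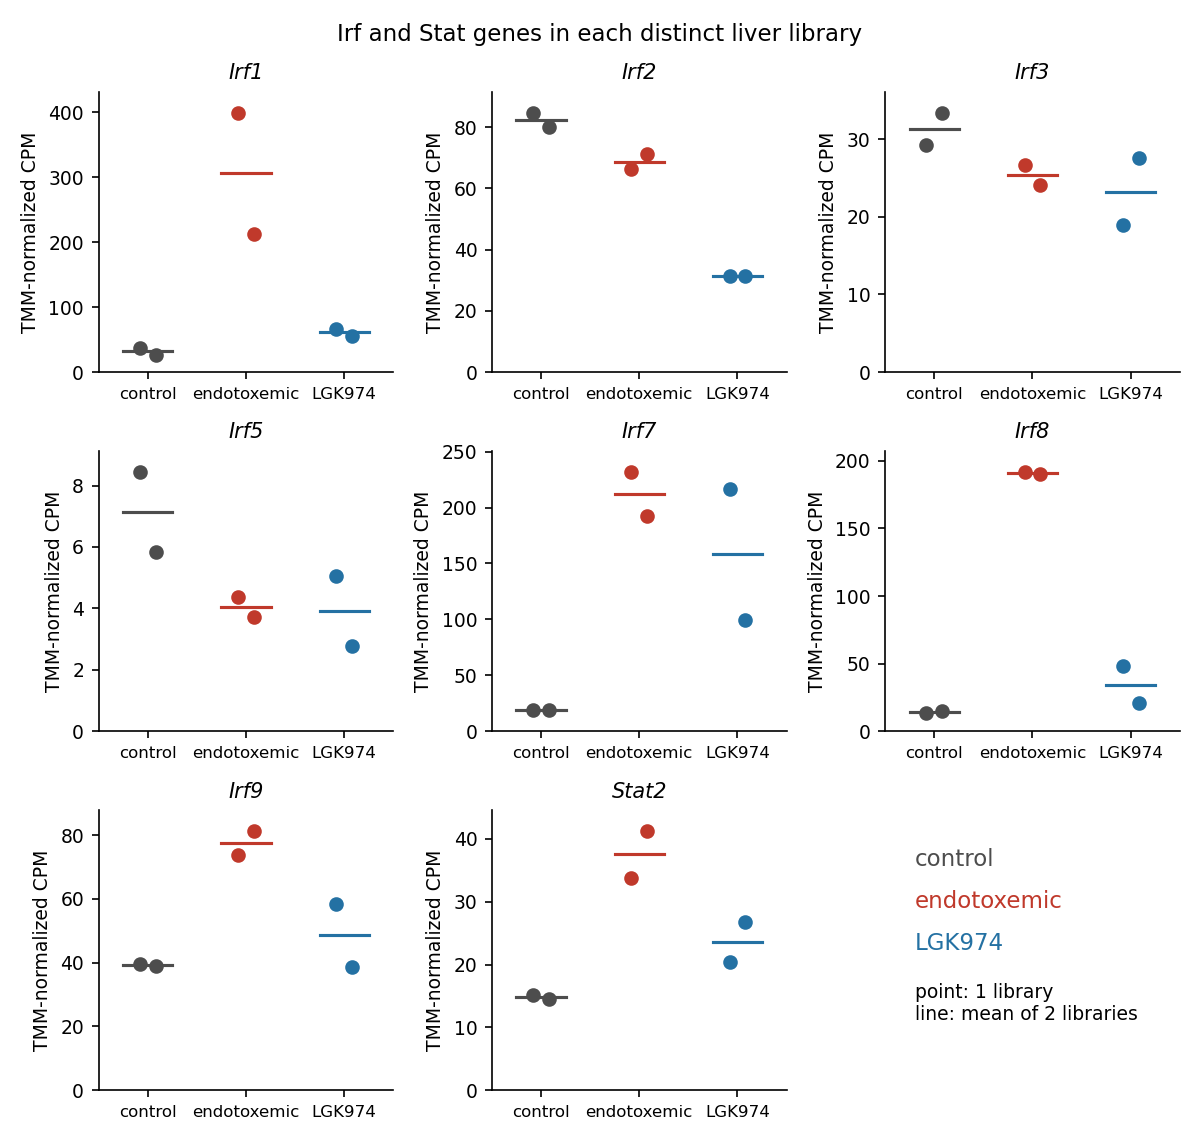
Level of each member on a row in genomic order in TMM-normalized CPM (linear axis from 0), by group, where a point is 1 distinct library and a line is the mean of the 2 libraries. *Irf1*, *Irf7* and *Irf8* were at 190 to 399 CPM in endotoxemic livers, and of these *Irf7* alone had an LGK974 library, at 217 CPM, within the endotoxemic range.

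*Irf3* (chr7:44997648-45002848, plus strand) encodes the factor that is phosphorylated after Toll-like receptor 4 signals through Trif. It was measured at 29.3 and 33.4 CPM in control, 26.7 and 24.1 in endotoxemic and 18.9 and 27.6 in LGK974 livers. The endotoxemic libraries lay below the control ones, and the LGK974 libraries enclosed the endotoxemic ones. The log2 fold change was -0.30 ± 0.24 (SE) in endotoxemic against control livers (adjusted p = 0.335), with a 95% interval from -0.85 to 0.24. Against the endotoxemic group, the LGK974 group differed by -0.13 (adjusted p = 0.798, interval -0.67 to 0.42). *Bcl2l12* overlaps the 5′ part of *Irf3* by 1065 bases on the opposite strand, away from the 3′ end that the method reads, and had 9 to 38 counts per library.

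*Irf5* (chr6:29526625-29541871, plus strand), an inducer of inflammatory cytokines in macrophages downstream of MyD88, was the least abundant of the 8 members on rows in order. Its counts were 91 and 89 in control, 40 and 35 in endotoxemic and 67 and 41 in LGK974 livers, which equal 8.45 and 5.82, 4.36 and 3.73, and 5.06 and 2.77 CPM. Both endotoxemic libraries and both LGK974 libraries were below the control libraries. The log2 fold change of -0.81 ± 0.42 (SE) in endotoxemic against control livers did not pass the test (adjusted p = 0.15, interval -1.76 to 0.14). In LGK974 against endotoxemic livers it was -0.05 (adjusted p = 0.959, interval -1.02 to 0.91). The 3′ end of *Irf5* lies inside *Tnpo3*, a gene of the opposite strand with 489 to 1125 counts per library, over 1045 bases. Whether the counting used strand is not given in the sources used here, so reads of the 2 genes could not be told apart if it did not.

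*Irf7* (chr7:141262706-141266481, minus strand) encodes the factor that amplifies type I interferon production and is itself induced by interferon. It had 19.0 and 18.5 CPM in control, 232 and 192 in endotoxemic and 217 and 99.1 in LGK974 livers. The endotoxemic and LGK974 libraries were all above the control libraries, and 1 LGK974 library lay between the endotoxemic ones. The rise in endotoxemic livers was 3.50 ± 0.36 on the log2 scale (SE, adjusted p = 7.46e-05), and that of the LGK974 group over control was 3.07 ± 0.35 (adjusted p = 0.0002), or 2.41 without LGK974 library 1. Between the LGK974 and endotoxemic groups the log2 fold change was -0.43 (adjusted p = 0.47, interval -1.15 to 0.30). This comparison rested on which LGK974 library was kept, since it was 0.03 (adjusted p = 0.946) without library 2 and -1.10 (adjusted p = 0.00201) without library 1. The last 45 bases of *Irf7* overlap the end of *Phrf1* on the opposite strand, and *Phrf1* was at 13.7 to 21.4 CPM in all libraries.

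*Irf1* (chr11:53770014-53778374, plus strand), an activator of interferon-stimulated and antigen presentation genes, was the most abundant of these 8 members in the endotoxemic group by mean. Its counts were 408 and 398 in control, 3659 and 1999 in endotoxemic and 877 and 827 in LGK974 livers. In CPM these were 37.9 and 26.0, 399 and 213, and 66.2 and 56.0, so that the 3 groups did not overlap and the LGK974 libraries stood between the other groups. The log2 fold change was 3.26 ± 0.33 in endotoxemic against control livers (SE, adjusted p = 7.62e-05). It fell by 2.33 ± 0.32 on the log2 scale in LGK974 against endotoxemic livers (adjusted p = 0.00668). The remaining difference of 0.94 ± 0.31 between LGK974 and control livers was close to the threshold (adjusted p = 0.0449). That call was lost without LGK974 library 1 (adjusted p = 0.0554) and without control library 1 (0.0781) or 2 (0.265).

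*Irf2* (chr8:46739732-46847458, plus strand), the antagonist of Irf1, was the most abundant in control livers of the 8 members on rows in order. It was measured at 84.7 and 80.0 CPM in control, 66.2 and 71.1 in endotoxemic and 31.5 and 31.3 in LGK974 livers. The groups did not overlap, and the LGK974 libraries were the lowest. The log2 fold change of -0.26 ± 0.18 in endotoxemic against control livers did not pass the test (SE, adjusted p = 0.27, interval -0.67 to 0.15). *Irf2* fell by 1.13 ± 0.18 on the log2 scale in LGK974 against endotoxemic livers (adjusted p = 0.0132) and by 1.39 ± 0.19 in LGK974 against control livers (adjusted p = 0.000485). The call against the endotoxemic group was lost without endotoxemic library 1 (adjusted p = 0.0956) or 2 (0.138), at log2 fold changes of -1.21 and -1.08.

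*Irf8* (chr8:120736358-120756694, plus strand), a factor that sets the monocyte and dendritic cell lineages and is induced by interferon-γ in macrophages, had the largest rise. Its counts were 147 and 232 in control, 1757 and 1784 in endotoxemic and 634 and 308 in LGK974 livers, which equal 13.6 and 15.2, 192 and 190, and 47.9 and 20.8 CPM. The groups did not overlap. The log2 fold change was 3.73 ± 0.37 in endotoxemic against control livers (SE, adjusted p = 5.92e-05), and *Irf8* fell by 2.48 ± 0.34 in LGK974 against endotoxemic livers (adjusted p = 0.00684). LGK974 livers were 1.25 ± 0.34 higher than control livers (adjusted p = 0.0204). The fall was not called without endotoxemic library 2 (-2.48, adjusted p = 0.0642), and it was -3.19 without LGK974 library 1 and -2.00 without library 2. The call over control was lost without LGK974 library 1 (0.53, adjusted p = 0.0545) and without control library 1 (adjusted p = 0.13) or 2 (0.0935).

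In whole liver, fewer cells of a type and less RNA per cell cannot be told apart. Markers of other cells moved with the groups. *Irf8* and *Irf5* are the members most tied to myeloid cells, and *Irf5* was not called in any comparison. Of the monocyte markers on rows in order, 3 of 4 were higher in endotoxemic than in control livers, and 0 of 4 passed the test between the LGK974 and endotoxemic groups (1 lower at an unadjusted p below 0.05, 0 with DESeq2). Their summed level was 18.0 to 20.7 CPM in control, 229 to 246 in endotoxemic and 172 to 183 in LGK974 livers. All 7 neutrophil markers tested were higher in endotoxemic livers and 0 of 7 passed it between the LGK974 and endotoxemic groups (1 lower at an unadjusted p below 0.05 and 1 with DESeq2), with sums of 3.27 to 4.08, 115 to 119 and 77.9 to 83.3 CPM. *Camp*, *Ngp* and *Ltf*, which encode neutrophil granule proteins, were at 0 in both control libraries. Of 11 Kupffer cell and macrophage markers, *Marco* was higher and 5 were lower in endotoxemic livers, and 1, *Clec4f*, was lower in LGK974 than in endotoxemic livers (4 at an unadjusted p below 0.05, 3 with DESeq2). Their sums were 267 to 274, 249 to 256 and 156 to 197 CPM. Of the 6 dendritic cell markers in order, *Zbtb46* alone had enough counts to be tested and was higher in LGK974 than in control livers (1.89 ± 0.63, adjusted p = 0.0463). Dendritic markers summed to 3.16 to 4.18, 1.85 to 2.45 and 2.84 to 4.98 CPM. T and NK cell markers summed to 5.36 to 7.80, 9.49 to 13.3 and 3.52 to 4.45 CPM, with *Ncr1* at 0 in every library. Of the 4 tested, *Gzmb* (3.03 ± 0.72) and *Gzma* (1.55 ± 0.49) were higher in endotoxemic than in control livers, and 0 passed the test between LGK974 and endotoxemic livers (2 lower at an unadjusted p below 0.05, 0 with DESeq2). B cell markers summed to 23.0 to 28.9, 28.3 to 39.5 and 17.2 to 27.9 CPM. Of the 4 tested, *Cd22* was lower in LGK974 than in endotoxemic livers (adjusted p = 0.0446) and than in control livers (adjusted p = 0.0288), on 8 and 10 counts in control, 10 and 13 in endotoxemic and 1 and 0 in LGK974 livers. The medians of these 4 markers were -2.96 and -3.04 on the log2 scale. The first call was lost without LGK974 library 2 or either endotoxemic library, and DESeq2 gave *Cd22* no adjusted p there. The second call was lost without any 1 of the LGK974 and control libraries. Of 8 sinusoidal endothelial markers, 2 were higher and 4 lower in endotoxemic than in control livers, with sums of 277 to 290, 461 and 493 to 631 CPM. *Clec4g* was lower in LGK974 than in endotoxemic livers (-2.19 ± 0.38, adjusted p = 0.0163), and 2 were higher and 5 lower than in control livers. Of 7 stellate cell markers, *Dcn* was higher and 3 were lower in endotoxemic than in control livers, and *Col1a1* was higher in LGK974 than in endotoxemic livers (1.59 ± 0.36, adjusted p = 0.0362). Their sums were 452 to 468, 567 to 608 and 485 to 582 CPM. The part of these cells in the values of the members was not tested.

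*Stat2* (chr10:128270559-128292849, plus strand) encodes a Stat protein that acts in type I interferon signaling. It had 15.2 and 14.5 CPM in control, 33.8 and 41.3 in endotoxemic and 20.4 and 26.8 in LGK974 livers. The 3 groups did not overlap, with LGK974 in the middle. The rise in endotoxemic livers was 1.34 ± 0.24 on the log2 scale (SE, adjusted p = 0.00178). LGK974 livers were at -0.67 ± 0.23 against endotoxemic livers (adjusted p = 0.124, interval -1.19 to -0.15) and at 0.67 ± 0.23 against control livers (adjusted p = 0.0532), and neither passed the test. The first was called without LGK974 library 2 (-0.88, adjusted p = 0.0425), and the second without LGK974 library 1 (0.86, adjusted p = 0.0123) and with no filter on low counts (0.70, adjusted p = 0.0368). In RefSeq the end of *Apof*, an apolipoprotein gene on the same strand with 6980 to 18634 counts per library, overlaps the first 753 bases of *Stat2*, and *Apof* was lower in both endotoxemic libraries than in the control libraries.

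*Irf9* (chr14:55603571-55610030, plus strand), the DNA-binding partner of Stat2, was at 39.7 and 39.1 CPM in control, 73.9 and 81.4 in endotoxemic and 58.3 and 38.8 in LGK974 livers. The endotoxemic libraries were above all others, and 1 LGK974 library lay just below the control libraries. The rise in endotoxemic livers was 0.98 ± 0.23 on the log2 scale (SE, adjusted p = 0.00817), and without endotoxemic library 2 or either control library its adjusted p was 0.0626 to 0.0631. Against the endotoxemic group, the LGK974 group was at -0.68 ± 0.23 (adjusted p = 0.119), and without LGK974 library 1 at -1.00 (adjusted p = 0.00418). Against the control group it was at 0.30 (adjusted p = 0.347), from -0.02 without LGK974 library 1 to 0.57 without library 2 (adjusted p = 0.956 and 0.0299).

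**Figure D2:**
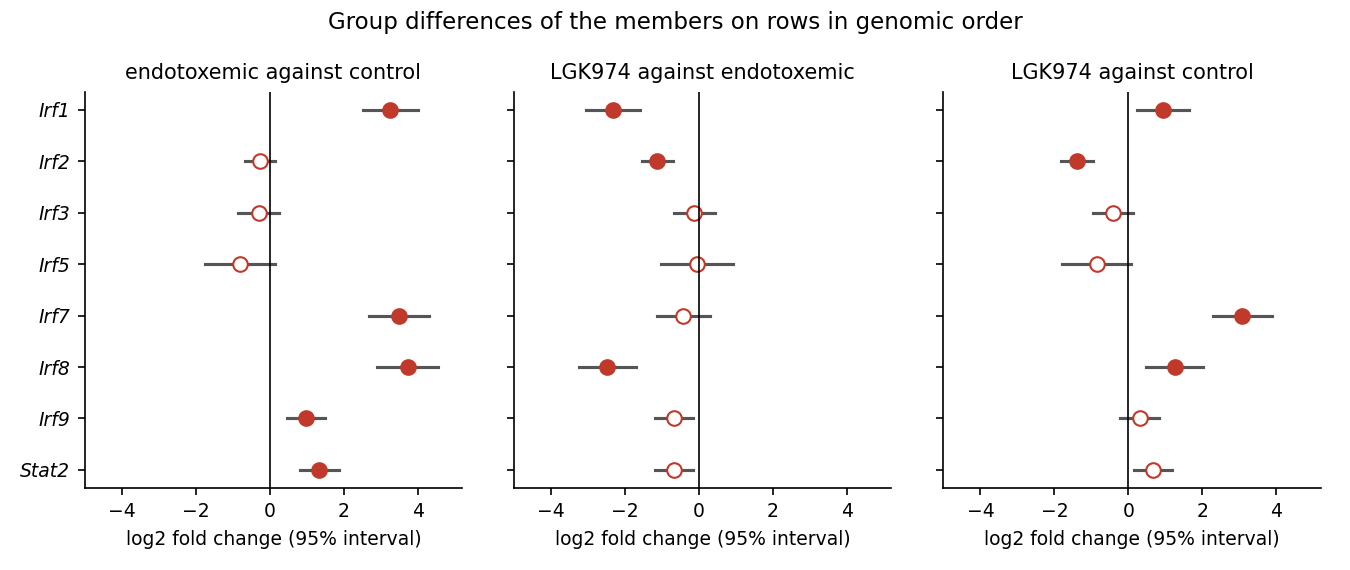
Log2 fold changes of the 8 members on rows in order in the 3 comparisons, where a line is the 95% interval and a filled point passed the test (adjusted p below 0.05, 2 libraries per group). *Irf1* and *Irf8* were filled in all 3 panels, above 0, below 0 and above 0 in turn.

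For *Stat3*, the row that carries the symbol had 1590 and 1591 counts in control, 421 and 487 in endotoxemic and 665 and 457 in LGK974 livers. Looked up after these values were seen, the row at the genomic place of *Stat3*, between *Stat5a* and *Ptrf*, carries the symbol *Cx3cl1*. It had 27 and 4 counts in control, 5652 and 3887 in endotoxemic and 6469 and 3958 in LGK974 livers. The row above *Stat5a*, where *Stat5b* belongs, carries *Ndst1*, and the row named *Stat5b* is itself out of order, with 515 and 697 counts in control libraries and 0 to 2 in the others. Which of these counts are those of *Stat3* in each group could not be settled from the files, and its change between groups is not given.

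The order of the 8 members on rows in order by mean level changed between groups. In control livers it ran from *Irf2* (82.4 CPM) through *Irf9* (39.4), *Irf1* (31.9), *Irf3* (31.4), *Irf7* (18.8), *Stat2* (14.9) and *Irf8* (14.4) to *Irf5* (7.13), where *Irf1* and *Irf3* overlapped, as did *Stat2* and *Irf8*. In endotoxemic livers *Irf1* (306 ± 132, SD, n = 2), *Irf7* (212 ± 28.4) and *Irf8* (191 ± 1.10) came first, and *Irf1* and *Irf7* overlapped. *Irf9* (77.7), *Irf2* (68.7), *Stat2* (37.5), *Irf3* (25.4) and *Irf5* (4.05) followed with no overlap between neighbours. In LGK974 livers *Irf7* led (158 ± 83.2), above *Irf1* (61.1), *Irf9* (48.5), *Irf8* (34.4), *Irf2* (31.4), *Stat2* (23.6), *Irf3* (23.3) and *Irf5* (3.92). There, *Irf1* overlapped *Irf9*, *Irf9* overlapped *Irf8*, *Irf8* overlapped *Irf2*, and *Stat2* overlapped *Irf3*. These levels are 3′-end counts scaled to the library and were not divided by length.

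The profile nearest to each risen member was sought by the Euclidean distance of mean-centred log2 CPM over the 6 libraries, which is a description. The search used 12107 genes on rows in order, a number that includes the members, which were not taken as neighbours. *Igtp* (0.54) and *Trim30a* (0.61) were nearest to *Irf8*, and *3110082I17Rik* (0.49) and *Ube2s* (0.53) to *Irf7*. *Gtse1* (0.76) and *Atp10a* (0.79) were nearest to *Irf1*, *Mgea5* (0.16) and *Dcp2* (0.18) to *Irf9*, and *Ints5* (0.28) and *Tcirg1* (0.29) to *Stat2*. *Atp10a* was at 0 and 0 CPM in control, 2.29 and 1.28 in endotoxemic and 0.453 and 0.203 in LGK974 livers. Its nearness to *Irf1* therefore rests on few counts. *Igtp*, an interferon-γ-induced GTPase, had 29.6 and 39.0 CPM in control, 364 and 469 in endotoxemic and 122 and 36.0 in LGK974 livers.

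Upstream of the Irf proteins, 12 of 17 sensors and adaptors tested were higher and 2 lower in endotoxemic than in control livers. *Irak3*, a brake on Toll-like receptor signaling, rose by 6.64 ± 0.58 on the log2 scale (SE), *Tmem173*, which encodes the DNA-sensing adaptor Sting, by 3.26 ± 0.33, and *Dhx58*, an RNA sensor, by 2.15 ± 0.44. *Slc15a4*, a lysosomal transporter needed for Irf5 and Irf7 activation by endosomal receptors, was at -2.17 ± 0.24 and the kinase gene *Irak1* at -0.77 ± 0.20. The call of *Irak1* was lost without any 1 of the 4 libraries (adjusted p = 0.0667 to 0.109). The count of 12 rises was smaller when any 1 of the control and endotoxemic libraries was left out. In LGK974 against endotoxemic livers, *Ddx58*, which encodes the RNA sensor Rig-I, was the 1 gene called (-0.94 ± 0.20, adjusted p = 0.0288). It was at 46.8 and 52.0 CPM in endotoxemic and 27.2 and 24.4 in LGK974 livers. Among these lists, genes on rows out of order were left out, which removed 13 of the 30 sensors and adaptors. The number called lower was 0 without either endotoxemic library, 7 without LGK974 library 1 and 2 without library 2.

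The interferon genes themselves were mostly at 0. *Ifnb1*, *Ifna1*, *Ifna2*, *Ifna4* and *Ifna5* had 0 counts in every library, which allows up to 0.196 to 0.327 CPM. *Ifng*, which encodes interferon-γ, had 0 and 0 counts in control, 93 and 127 in endotoxemic and 2 and 0 in LGK974 livers. Its mean of 11.8 CPM in endotoxemic livers was at least 42.5-fold higher than the 3-count floor of the control libraries. *Ifng* was lower in LGK974 than in endotoxemic livers (adjusted p = 0.00399), and without endotoxemic library 2 it was not called (adjusted p = 0.0665). *Ebi3*, a subunit of interleukin-27, was at 0.0928 and 0.784 CPM in control, 14.2 and 11.2 in endotoxemic and 5.59 and 5.14 in LGK974 livers. *Il12b*, an interleukin-12 subunit, was called higher in endotoxemic than in control livers (adjusted p = 0.0292) on at most 17 counts per library. When any 1 of the control and endotoxemic libraries was left out, not all of *Ifng*, *Ebi3* and *Il12b* stayed called there. The rows of *Il6*, *Il10* and *Il27* were out of order.

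Upstream of the Stat proteins, 12 of 22 receptors and kinases were higher and 5 lower in endotoxemic than in control livers, where 20.4% and 23.0% of all genes were, so that the share of lower genes was near that of all genes. *Osmr*, the oncostatin M receptor, rose by 3.54 ± 0.34 on the log2 scale (SE), *Csf2rb*, the shared chain of the granulocyte-macrophage colony-stimulating factor receptor, by 2.78 ± 0.29 and *Csf3r* by 3.70 ± 1.09 on at most 20 counts per library. *Lifr* (-2.56 ± 0.27), *Ghr* (-2.35 ± 0.30) and *Prlr* (-2.05 ± 0.19), the receptors of leukemia inhibitory factor, growth hormone and prolactin, fell. Leaving out 1 endotoxemic or control library took the rises to 5 to 7. Between LGK974 and endotoxemic livers, *Il2rg* (-1.36 ± 0.27) and *Prlr* (-0.84 ± 0.18) were lower, both lost without either endotoxemic library, and 4 were lower without LGK974 library 1.

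Among the feedback inhibitors, 8 of 19 were higher and 0 lower in endotoxemic than in control livers. *Socs1*, which blocks Jak kinases after interferon, had 1.58 and 0.457 CPM in control, 168 and 107 in endotoxemic and 47.3 and 24.6 in LGK974 livers. *Socs3*, the inhibitor of interleukin-6 signaling, had 39.2 and 29.4, 532 and 304, and 232 and 260 CPM. Hence all LGK974 libraries lay above control and below endotoxemic libraries for both genes. *Socs1* fell by 1.94 ± 0.40 on the log2 scale in LGK974 against endotoxemic livers (SE, adjusted p = 0.0284), as did *Cish* (by 1.67 ± 0.30) and the phosphatase gene *Ptpn1* (by 0.94 ± 0.20). *Socs3* was not called there. The count of 3 lower genes became 0 or 1 without an endotoxemic library and 5 or 8 without an LGK974 library.

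Of the partners of Irf and Stat proteins, 8 of 19 were higher in endotoxemic than in control livers. Fewer were higher when any 1 of the control and endotoxemic libraries was left out. *Ndufa13* was the 1 lower gene (-0.58 ± 0.18), and 0 were lower without any 1 of the control and endotoxemic libraries. *Batf2* (7.02 ± 0.75, log2 and SE), *Batf* (3.56 ± 0.53) and *Batf3* (3.07 ± 0.64), basic leucine zipper factors that bind DNA with Irf proteins, had the largest rises. *Batf2* was at 0 and 0.261 CPM in control, 25.0 and 16.9 in endotoxemic and 5.06 and 2.10 in LGK974 livers. *Batf3* (-3.00 ± 0.64), *Batf2* (-2.56 ± 0.51) and *Nlrc5*, the activator of MHC class I genes (-1.81 ± 0.29), were lower in LGK974 than in endotoxemic livers. These 3 became 0 without either endotoxemic library and 6 without LGK974 library 1.

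Downstream, 36 of 39 targets of the complex of Stat2 and Irf9 were higher and 0 lower in endotoxemic than in control livers, with a median log2 fold change of 3.16. *Oas3* (5.43 ± 0.71, log2 and SE), *Isg15* (5.39 ± 0.47) and *Mx1* (4.86 ± 0.97) had the largest rises among those called. *Isg15*, a ubiquitin-like modifier, had 42.8 and 39.3 CPM in control, 1810 and 1630 in endotoxemic and 1500 and 538 in LGK974 livers. *Parp14* had 18.9 and 18.3, 116 and 127, and 25.7 and 26.2 CPM. Thus the LGK974 libraries of *Parp14* were near the control level, whereas 1 LGK974 library of *Isg15* was near the endotoxemic level. In LGK974 against endotoxemic livers, 14 of the 39 were lower and 0 higher (median -1.41), led by *Trim30a* (-2.31 ± 0.34), *Parp14* (-2.23 ± 0.19) and *Cmpk2* (-2.14 ± 0.40). Against control livers, 26 were higher and 1, *Helz2*, lower (median 1.51). The call of *Helz2* (adjusted p = 0.0415) was lost with DESeq2 (adjusted p = 0.0512), with no filter on low counts (0.0889) and with only the groups compared (0.119). It was also lost without LGK974 library 1 or either control library. The count of 14 ranged from 1 without endotoxemic library 2 and 3 without library 1 to 34 without LGK974 library 1. The count of 26 became 13 and 16 without control libraries 1 and 2.

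Targets of Irf1 and related factors in the interferon-γ response showed 25 of 28 higher and 1, *Gch1*, lower in endotoxemic than in control livers (median 3.13). The call of *Gch1* was lost without any 1 of the 4 libraries (adjusted p = 0.0513 to 0.0881). *Gbp2* (7.17 ± 0.64, log2 and SE), *Tgtp1* (6.30 ± 0.62) and *Gbp4* (6.26 ± 0.44) rose most. *Gbp2*, a guanylate-binding protein gene, was at 6.22 and 5.75 CPM in control, 829 and 890 in endotoxemic and 611 and 156 in LGK974 livers. *Tgtp1*, an immunity-related GTPase gene, was at 3.99 and 3.73, 295 and 314, and 65.6 and 16.4 CPM. Reads of *Tgtp1* and its near-identical copy *Tgtp2* may have been split or shared in counting. In LGK974 against endotoxemic livers 9 of 28 were lower and 0 higher (median -1.37), led by *Tgtp1* (-2.89 ± 0.51), *Tgtp2* (-2.81 ± 0.50) and *Igtp* (-2.40 ± 0.47). This count was 0 without either endotoxemic library and 20 without LGK974 library 1.

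Targets of Stat3 in hepatocytes, 26 of 44 on rows in order, were called higher in 23 cases and lower in 1, *Il6ra*, in endotoxemic against control livers (median 2.43). The call of *Il6ra* (adjusted p = 0.0447) was lost with DESeq2 (adjusted p = 0.0572) and with no filter on low counts (0.0663). It was also lost without any 1 of the 4 libraries. *A2m*, *Lcn2* and *Steap4* had the largest rises. *Lcn2*, which encodes a siderophore-binding acute phase protein, had 20.2 and 13.8 CPM in control, 3370 and 4680 in endotoxemic and 2840 and 2880 in LGK974 livers. *A2m*, encoding a protease inhibitor, had 0.557 and 0.0654, 121 and 124, and 131 and 209 CPM. In LGK974 against endotoxemic livers, *Bcl2l1* (-1.16 ± 0.28) and *Pim1* (-0.95 ± 0.21), both survival genes, were lower and 24 were not called (median -0.32). These 2 calls became 0 without either endotoxemic library, 7 without LGK974 library 1 and 4 without library 2. Against control livers, 22 of 26 were higher and 1, *Il6ra*, lower (median 2.30). That lower call (adjusted p = 0.0276) was lost with only the groups compared (0.0578), and without LGK974 library 1 or either control library. *Il6ra* and *Osmr* are also counted among the receptors above, and *Socs3* among the feedback inhibitors.

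**Figure D3:**
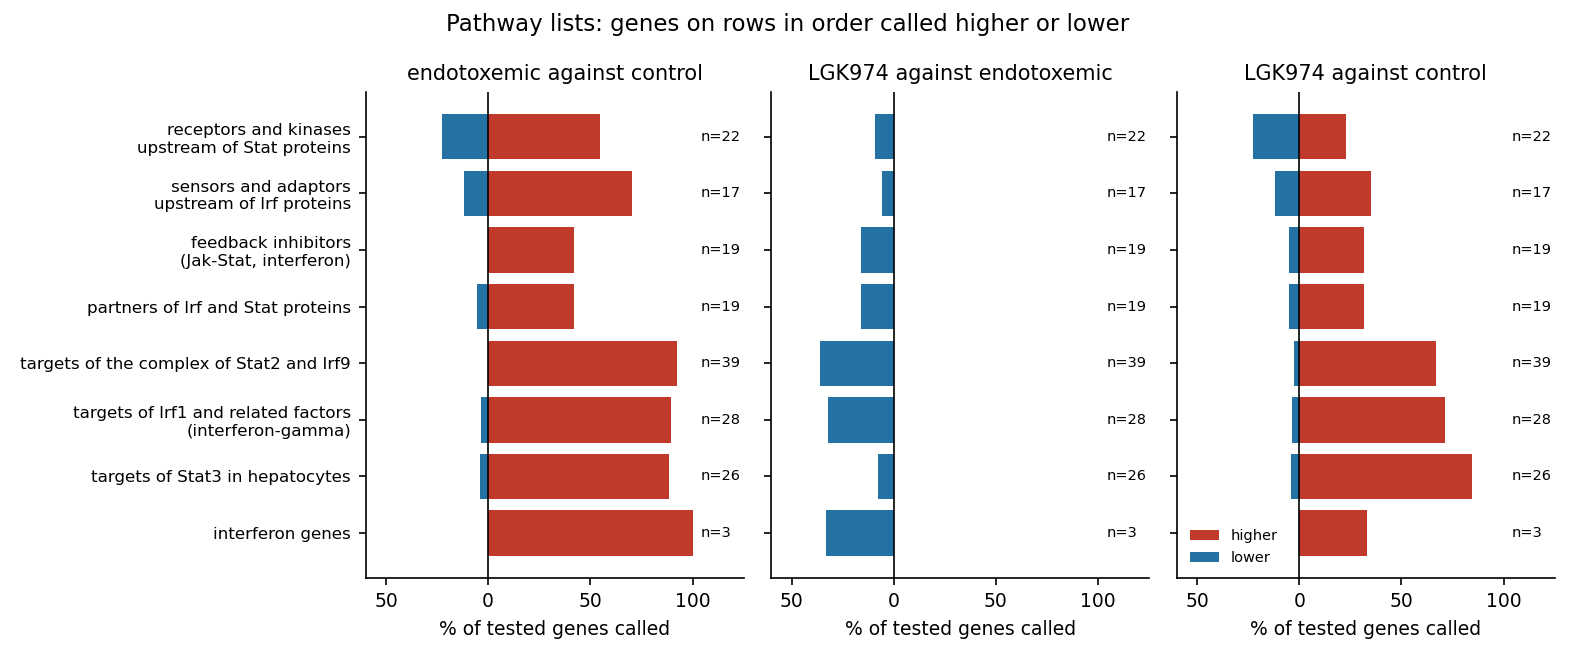
Percentage of tested genes of each list on rows in order that were called higher (red, to the right) or lower (blue, to the left) in the 3 comparisons, with n the number of genes tested. The target lists had 36 of 39, 25 of 28 and 23 of 26 genes higher in endotoxemic against control livers, and 14, 9 and 2 lower in LGK974 against endotoxemic livers.

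The summed level of the complex's targets was 641 and 671 CPM in control, 5280 and 5310 in endotoxemic and 3480 and 1580 in LGK974 livers. That of the interferon-γ targets was 6120 and 5380, 17000 and 15700, and 12000 and 6450 CPM. For both lists LGK974 library 2 was the lower one. It was also the lower one for *Irf1*, *Irf5*, *Irf7*, *Irf8* and *Irf9*, and by little for *Irf2* (31.5 and 31.3 CPM). *Stat2* and *Irf3* were higher in that library. For the Stat3 targets the sums were 22400 and 20000, 120000 and 115000, and 105000 and 107000 CPM, and the 2 LGK974 libraries differed little. For each pathway or target list called 0 times in a direction above, DESeq2 also called 0 and 0 genes had an unadjusted p below 0.05, except 1 higher sensor or adaptor in LGK974 against endotoxemic livers by unadjusted p. Whether the difference between lists exceeds that between libraries was not tested.

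**Figure D4:**
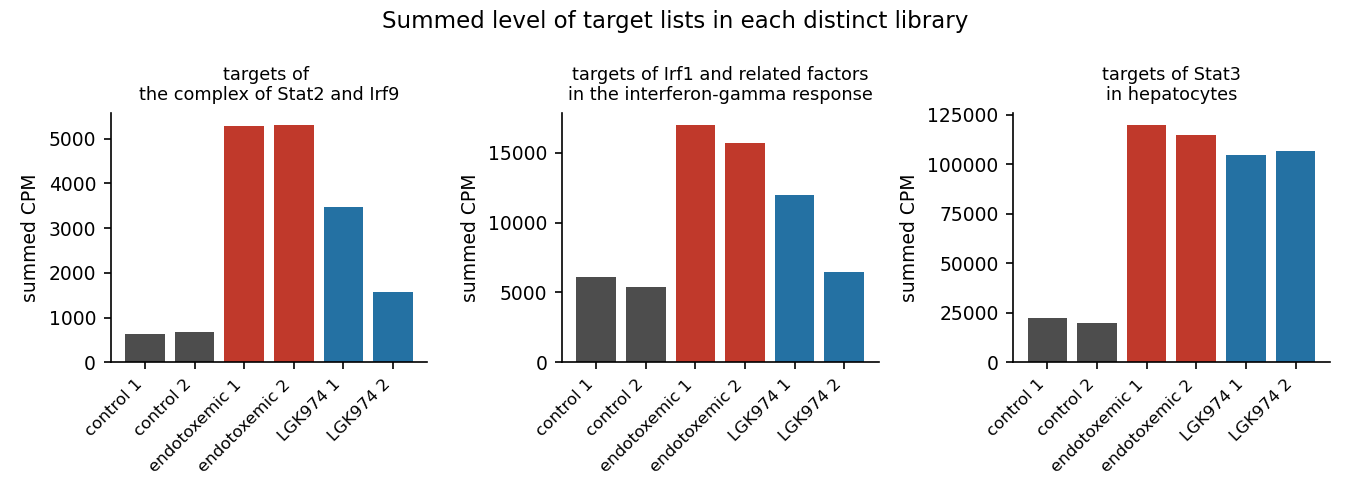
Summed CPM (linear axis from 0) of the genes on rows in order in 3 target lists, with 1 bar per distinct library. In the first 2 panels LGK974 library 2 (1580 and 6450 CPM) stands below library 1 (3480 and 12000 CPM), and in the third they are at 107000 and 105000 CPM.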

How the data were processed

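In 8 liver libraries, 3′ ends of transcripts were sequenced (QuantSeq). The authors deposited whole-number read counts per gene symbol, without normalization. The submitters' processing notes name Bowtie2, edgeR and mm10, and the counting program, its use of strand and the tool versions are not given in the sources used here. Libraries with the same count on every row were counted once, which left 6. Depth was 9142116 to 15222439 counts, and a floor of 3 counts covers counting error only.

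The counts were fitted with edgeR 4.0.16 under R 4.3.3 (filterByExpr, TMM, 1 quasi-likelihood model with group as factor, F test, Benjamini-Hochberg threshold 0.05 over 12701 genes). SE was the log2 fold change divided by the root of F. CPM are TMM-normalized. The script was tested on simulated data. Row order was compared with RefSeq positions, and distances of 1 Mb and 5 Mb placed the members as 2 Mb did. Coordinates of genes come from GENCODE M21, and promoters from RefSeq on GRCm38.p6, which had windows for 9 of the 9 members. The unit was as planned. The list of further family genes is not reported here.

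The members and lists were chosen with earlier results of these data known. Named genes are the members, genes from the 3 largest rises and falls of each list among those called, not each of them, the 2 nearest profiles of each risen member, and genes that check tissue and sex. The overlapping genes and the rows around *Stat3* were added for the results that turn on them, as were the interferon genes at 0. Alternatives were no filter, 10 counts in every library, RLE normalization, DESeq2 1.42.0, only the groups compared, the replicate block, rows out of order left out, and leaving out each library.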

Additional observations from a re-analysis of the deposited data

How the results depend on the processing

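Over 88 values of members under alternatives in each comparison, 85 in endotoxemic against control, 78 in LGK974 against endotoxemic and 76 in LGK974 against control livers kept their direction and side of the threshold. The other 3, 10 and 12 changed when a library was left out, except *Stat2* with no filter, and the cause was not tested. A group reduced to 1 library was assumed to vary like the other groups. Leaving out each library in turn took the count of members lower in LGK974 than in endotoxemic livers from 1 to 5, that of members higher than in control livers from 1 to 4, and that of members lower than in control livers from 1 to 2. In the same fits the log2 fold change in LGK974 against endotoxemic livers ranged from -0.42 to 0.12 for *Irf3*, from -0.54 to 0.32 for *Irf5* and from -1.10 to 0.03 for *Irf7*, and that of *Irf9* against control livers from -0.02 to 0.57. *Irf3* (-0.73, adjusted p = 0.0285) and *Irf5* (-1.35, adjusted p = 0.0376) were called lower than control without LGK974 libraries 2 and 1, respectively.

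For LGK974 against endotoxemic livers, the count of lower targets of Stat2 and Irf9 was 27 with DESeq2, 32 with no filter and 7 with only the groups compared, against 14, and that of interferon-γ targets was 15, 21 and 5, against 9. Leaving out libraries for the lists was chosen after seeing the data. Over all genes, that comparison had 356 higher and 358 lower, 604 and 627 with DESeq2, 881 and 824 with no filter, and 107 and 162 with only the groups compared. It had 23 to 1175 higher and 26 to 1067 lower when a library was left out.

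Deviations of same-numbered libraries from their group means correlated at 0.14, 0.06 and -0.0075 in the 3 comparisons. Whether libraries of the same number share a batch was not tested. With the replicate block, members were 5 higher and 0 lower, 0 and 3, and 3 and 1 in the 3 comparisons, and the calls of all genes were 2577 and 2908, 330 and 355, and 2048 and 2259. The replicate block took the lower Stat3 targets in LGK974 against endotoxemic livers from 2 to 1 and ended both calls of *Cd22* (adjusted p = 0.075 and 0.0537), as only the groups compared did for the first (0.0678). Depth limits *Irf5*, with 35 to 91 counts per library, and the interferon genes at 0.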
